A study of Mus musculus with 4 samples.

Results

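Integrins and the focal adhesion proteins that couple them to actin were followed in mouse cortical neuron cultures given a control or a DcpS shRNA. DcpS is an enzyme that clears the cap fragment remaining once an mRNA has been degraded. The group was defined by name: every integrin alpha and beta subunit gene in the deposited table (26 genes), and 14 focal adhesion genes, namely the talins Tln1 and Tln2, vinculin (Vcl), Ilk, the kindlins Fermt1 to Fermt3, the parvins Parva and Parvb, the PINCH genes Lims1 and Lims2, zyxin (Zyx), paxillin (Pxn) and focal adhesion kinase (Ptk2). These 40 genes are among 32681 in the table. They were picked by name, but the group was chosen with earlier results of these data known. All cultures were primary neuronal cells from neocortex of wild-type CD-1 mouse embryos at embryonic day 13, kept in Neurobasal medium with B27 supplement. A control shRNA was transfected into 2 of them and a DcpS shRNA, numbered shDcPS-2 in the titles, into the other 2. The share of cells that took up the shRNA, and whether the cultures came from separate litters, are not given in the labels. The p-values therefore reflect no more than the spread among these 4 libraries, and that spread could be technical.

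Integrins are receptors made of 1 alpha and 1 beta subunit that span the cell membrane and bind matrix proteins outside the cell. The alpha subunit largely sets the ligand, collagen, laminin or proteins with an RGD motif such as fibronectin, while the beta subunit carries the tail that talin and kindlin bind to switch the receptor on. Vinculin, the complex of ILK, PINCH and parvin, paxillin, zyxin and focal adhesion kinase then assemble on the tail, tie it to actin filaments and signal. In the embryonic cortex beta1 integrins help anchor radial glia to the basement membrane, and alpha v beta8 releases active TGF-beta at its surface.

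The 4 libraries held 17754768 to 21793685 reads, so a count of 0 in a library allows up to 3 reads, or 0.138 to 0.169 CPM, for counting error only. Dcps measured 499.8 and 506.6 normalised reads (reads divided by 1 factor per library) in control libraries against 114.5 and 119.6 after DcpS shRNA, which is 23.3% of the control mean. Markers of cortical neurons were abundant in every library. Over 12 genes they summed to 94970 and 92887 in control libraries against 90236 and 87874 after DcpS shRNA. Rbfox3 alone of them was called, in the higher direction, while 4 were lower at an unadjusted limma p under 0.05. The Rbfox3 call ended without control 2 (limma adjusted p 0.310), without DcpS shRNA 2 (0.0586) and in DESeq2 (0.128). Fibroblast markers were present too, and 8 of 10 were called lower, or 5 without control 2 and 5 in DESeq2. A call means a Benjamini-Hochberg adjusted p under 0.05 over all 18110 genes tested (limma, two-sided). Lower calls took 3.65% of these genes and higher calls 2.14%.

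With DcpS shRNA, 4 of the 35 members that could be tested fell and 0 rose. Those that fell were Itgb1, the beta subunit shared by most matrix-binding integrins, Itga1, the alpha subunit of a collagen receptor, Itgb5, a partner of alpha v, and Pxn, which encodes the adhesion scaffold paxillin. Lower calls took 11.4% of the tested members, against 3.65% of all genes tested, and higher calls 0%, against 2.14%; in both directions together, 5.79% of all genes were called. In limma 11 members had an unadjusted p under 0.05 in the lower direction and 5 in the higher, edgeR also called 0 higher, and DESeq2 called 0 higher. DESeq2 called 2 lower, Itgb1 and Itga1, and limma without intensity trend and robust variance called 0 members and 0 of all genes, with 7 members lower and 5 higher at an unadjusted p under 0.05. The median log2 fold change was −0.12 over the 23 tested integrins and −0.05 over the 12 tested focal adhesion genes, against 0.00 over all genes. In 16 tested members both DcpS shRNA libraries lay below both controls and in 7 both lay above; for all genes these shares were 24.0% and 24.4%. In bulk RNA, fewer cells of a type and less RNA per cell cannot be told apart.

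**Figure D1:**
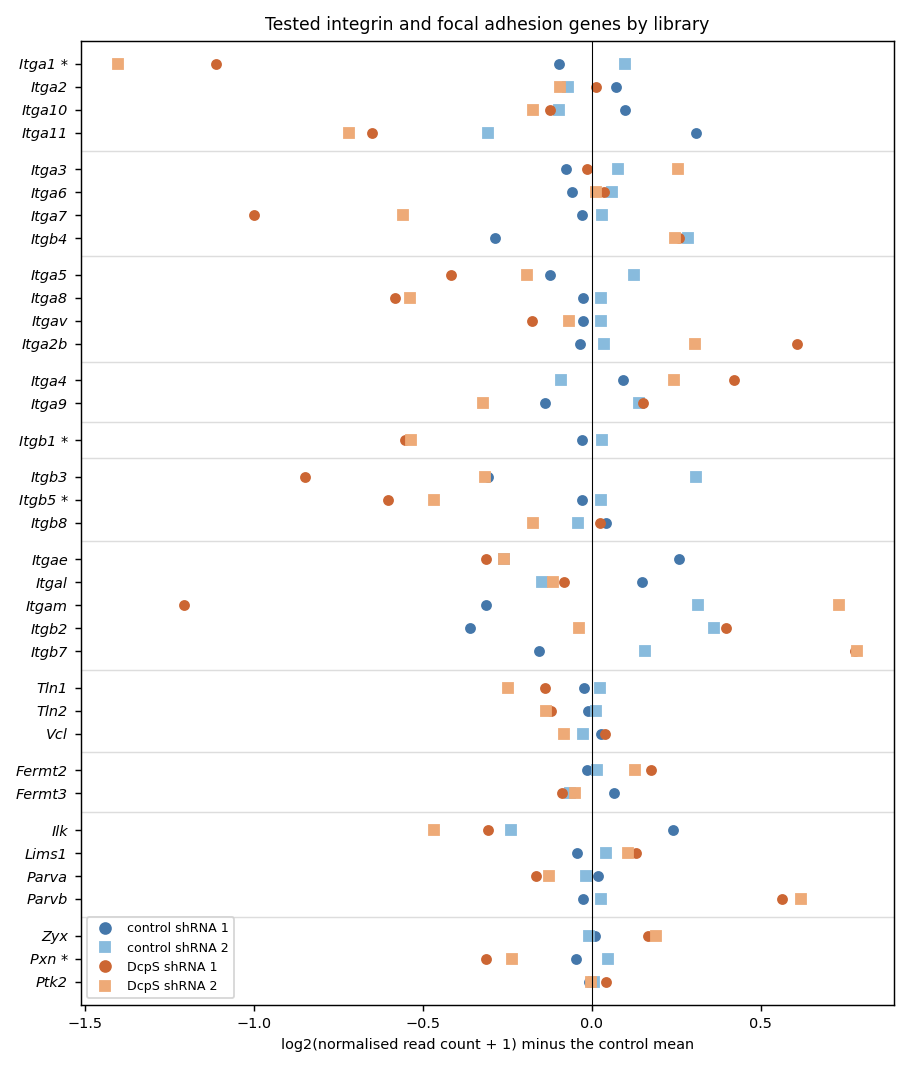
Each row is 1 of the 35 tested genes, grouped by role, and each point is 1 library, placed by its log2(normalised read count + 1) minus the mean of the controls; asterisks mark the 4 called genes. Itga1, Itgb1 and Itgb5 lie to the left of both controls in both DcpS shRNA libraries, while Ptk2 and Itga6 stay near 0.

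Itgb1, the member with the highest level per kilobase of exon, fell to 68.5% of its control level. Control libraries held 3779 and 3931 normalised reads of it, and DcpS shRNA libraries 2626 and 2659. The groups did not overlap, and the mean went from 3855 ± 108 to 2642 ± 23.2 (SD, n = 2 per group). The log2 fold change was −0.54 (SE 0.05, limma adjusted p 6.82e-06). The gene lies on chromosome 8, 128685654 to 128733200 (plus strand, GRCm38, GENCODE M21), and no annotated exon of another gene overlaps its exons.

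Itga1 showed the largest fold change of the group. This subunit pairs only with beta1 and binds collagens, type IV above all. Its 2 controls read 170.1 and 194.9, and its DcpS shRNA libraries 83.6 and 68.2. Both DcpS shRNA libraries thus held fewer than either control, 41.6% of the control mean (182 ± 17.5 against 75.9 ± 10.9, SD, n = 2 per group), at a log2 fold change of −1.26 (SE 0.15, limma adjusted p 9.33e-05). Itga1 lies on chromosome 13, 114953096 to 115101964 (minus strand, GRCm38), and 3.68% of its exon bases are shared with Gm49395 on the same strand.

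Itgb5 encodes a beta subunit that pairs with alpha v to bind vitronectin. Control values of 285.1 and 296.4 stood against 190.8 and 210.1 after DcpS shRNA, without overlap, at 68.9% of control. The log2 fold change was −0.54 (SE 0.11, limma adjusted p 0.00648). DESeq2 gave the same direction but not the call (adjusted p 0.0555). The gene lies on chromosome 16, 33829665 to 33949338 (plus strand, GRCm38).

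Pxn had the smallest change of the 4. It measured 810.5 and 865.5 in control libraries against 674.2 and 710.7 after DcpS shRNA, 82.6% of control, again with no overlap. Its log2 fold change was −0.27 (SE 0.07, limma adjusted p 0.0274). The call ended without control 2 (limma adjusted p 0.234), without DcpS shRNA 1 (0.0714) and in DESeq2 (0.178). Pxn lies on chromosome 5, 115506676 to 115555987 (plus strand, GRCm38).

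**Figure D2:**
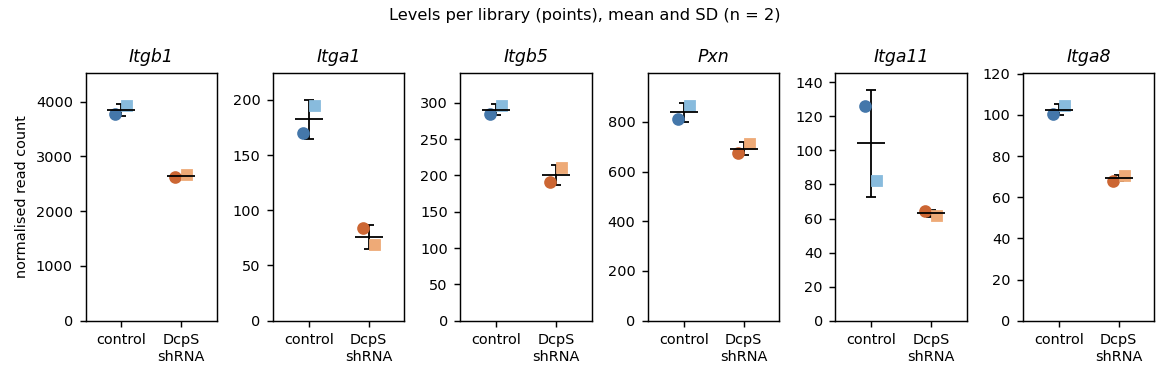
Normalised read counts by library for the 4 called genes and for Itga11 and Itga8, which missed the threshold, on linear axes from 0; bars are the mean and SD of 2 libraries. In all 6 panels both DcpS shRNA libraries lie below both controls, and for Itga11 the controls are far apart, at 126.4 and 82.0.

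Of the 4 called genes, Itga1 and Pxn carry in the annotated 3′ untranslated region a 7-base word that the Dcps transcript also contains, ACGTGCA or CACGTGC. The words come from earlier results on these data, where they were common among lower genes, so their presence here is a description. The sites are shown because they are the only such matches among all 40 members, each read on the transcript strand with the word in capitals (GRCm38, GENCODE M21). In Dcps the words overlap by 6 bases, and the line shows the first of them. Dcps lies on the minus strand with its site at chr9:35124747-35124773, Itga1 on the minus strand at chr13:114957345-114957371, and Pxn on the plus strand at chr5:115554677-115554703.
Dcps: ctatcacctgCACGTGCatttcacagc
Itga1: attcctagaaACGTGCAtcaggcctta
Pxn: tttatatagaCACGTGCttcatctctg
The Itga1 word starts 2729 bases after the stop codon of a 3′ untranslated region of 6994 bases, and the Pxn word 552 bases into one of 1852. Neither word was found for Itgb1, Itgb5 or any of the 31 members tested and not called. Over all tested genes with a scanned region, a word was present in 33.1% of 646 called lower, 6.25% of 368 called higher and 8.0% of 13693 protein-coding genes. The part of these words in the fall of Itga1 and Pxn was not tested. The shRNA sequence is not in the labels, so whether the words match it was not tested either.

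The RefSeq promoters of the 3 called integrins, from 250 bases before to 50 after the gene start, are shown because these subunits fell together. Capitals mark matches on either strand to GGGCGG, the core of SP and KLF factor motifs, to GGAATG, the core of the TEAD motif, and to TGANTCA, the AP-1 motif (GRCm38.p6). The Itgb1 window is chr8:128685404-128685703 on the plus strand, that of Itgb5 chr16:33829415-33829714 on the plus strand, and that of Itga1 chr13:115101915-115102214 on the minus strand. Pxn had no entry among these promoters and was not scanned.
Itgb1: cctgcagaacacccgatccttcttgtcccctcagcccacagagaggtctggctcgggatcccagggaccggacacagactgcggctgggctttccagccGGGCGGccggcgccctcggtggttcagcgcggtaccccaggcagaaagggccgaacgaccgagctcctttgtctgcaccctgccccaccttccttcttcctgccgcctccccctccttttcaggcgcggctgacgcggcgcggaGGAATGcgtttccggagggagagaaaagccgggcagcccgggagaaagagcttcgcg
Itgb5: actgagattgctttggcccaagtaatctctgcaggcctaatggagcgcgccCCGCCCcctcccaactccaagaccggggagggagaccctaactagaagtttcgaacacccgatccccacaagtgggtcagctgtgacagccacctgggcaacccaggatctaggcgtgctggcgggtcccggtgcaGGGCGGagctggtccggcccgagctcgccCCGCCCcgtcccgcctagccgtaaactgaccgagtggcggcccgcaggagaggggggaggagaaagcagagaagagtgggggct
Itga1: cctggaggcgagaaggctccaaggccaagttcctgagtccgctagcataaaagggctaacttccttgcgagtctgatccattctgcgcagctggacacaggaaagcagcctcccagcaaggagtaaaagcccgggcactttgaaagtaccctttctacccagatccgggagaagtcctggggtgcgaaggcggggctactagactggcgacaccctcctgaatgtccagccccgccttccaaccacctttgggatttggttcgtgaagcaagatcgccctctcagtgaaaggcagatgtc
Itgb1 held 1 GGGCGG and 1 GGAATG, Itgb5 held 3 GGGCGG, and Itga1 held none of the 3 motifs. GGGCGG was in 35.7% of all 32851 promoters of this length and in 15 of the 27 members with an entry. The shares of all are per promoter, while a member counts if any of its promoters matched. GGAATG was in 14.7% of all and in 3 members (Itga10, Itgb1 and Vcl), and TGANTCA in 7.81% of all and in 4 members (Itga3, Itga9, Itgax and Zyx).

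Among the other collagen-binding alpha subunits, none was called. Itga11, a receptor for fibrillar collagen found mainly on fibroblasts, measured 126.4 and 82.0 in control libraries against 64.5 and 61.5 after DcpS shRNA, so the groups did not overlap but the controls differed widely. Its log2 fold change was −0.69 (SE 0.20, limma adjusted p 0.0553), and it passed in edgeR (adjusted p 0.0420) and without control 2 (limma adjusted p 0.00393). Without control 1 its log2 fold change was −0.38 (limma adjusted p 0.525). Itga10, typical of cartilage, gave 54.2 and 47.2 against 46.3 and 44.7, and Itga2, of platelets and epithelia, 11.4 and 10.3 against 10.9 and 10.1. The summed level of the 4 collagen-binding subunits was 362 and 334 in control libraries against 205 and 184 after DcpS shRNA.

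The laminin-binding subunits gave no call in limma or edgeR, with 1 at an unadjusted limma p under 0.05 (Itga7). DESeq2 called neither Itga3 nor Itga6 and gave no adjusted p for Itga7 and Itgb4. Itga6, a laminin receptor subunit of radial glia and many epithelia, measured 1229 and 1333 in control libraries against 1311 and 1291 after DcpS shRNA. Its groups overlapped, and the 95% interval of its log2 fold change ran from −0.11 to 0.15. Itga3, which binds laminin and has been linked to neuron migration along radial glia, measured 238.5 and 265.6 against 248.9 and 300.6. Itga7, mainly a muscle laminin receptor, measured 29.5 and 30.8 in control libraries against 14.5 and 20.1 after DcpS shRNA, without overlap but at few reads (log2 fold change −0.78, SE 0.30, limma adjusted p 0.166). Itgb4, the beta partner of alpha6 in hemidesmosomes, measured 19.0 and 28.7 against 28.2 and 27.9.

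RGD-binding alpha subunits were not called by limma or edgeR either, with 2 at an unadjusted limma p under 0.05, Itga8 and Itga5. DESeq2 did not call Itga5, Itga8 or Itgav and gave no adjusted p for Itga2b. Itga8, a receptor for nephronectin, measured 100.7 and 104.6 in control libraries against 68.1 and 70.4 after DcpS shRNA. The groups lay apart with little spread inside each, and the log2 fold change of −0.56 (SE 0.16) just missed the threshold (limma adjusted p 0.0560). Itga5, the fibronectin receptor, measured 180.5 and 214.3 against 147.2 and 172.1 (log2 fold change −0.30, SE 0.13, limma adjusted p 0.229). Itgav, the alpha v subunit, measured 742.1 and 769.1 against 667.8 and 720.8, with a 95% interval of −0.27 to 0.03. Itga2b, the platelet subunit, measured 35.2 and 36.9 against 55.4 and 44.7, and the log2 fold change of 0.46 (SE 0.23) did not pass (limma adjusted p 0.297).

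Besides Itgb1, which can also pair with alpha v and fell, the beta subunits that pair with alpha v differed in their calls. Itgb5 fell, while Itgb8 and Itgb3 were not called and Itgb6 was not tested. Itgb8, which with alpha v activates TGF-beta on radial glia, measured 701.2 and 662.5 in control libraries against 693.2 and 603.4 after DcpS shRNA, with overlap and a 95% interval of −0.24 to 0.09. Whether the changes of Itgb5 and Itgb8 differ was not tested. Itgb3 had few reads, at 12.4 and 19.5 against 8.2 and 12.3 (log2 fold change −0.58, SE 0.41, limma adjusted p 0.498). Itga4 and Itga9, which bind VCAM-1, tenascin and fibronectin variants, were not called, at 102.6 and 90.2 against 129.0 and 114.0 for Itga4 and 97.9 and 119.0 against 119.9 and 86.0 for Itga9.

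Leukocyte integrins were low, and 0 of the 5 tested were called by limma or edgeR, with 0 at an unadjusted limma p under 0.05. DESeq2 gave no adjusted p for any of these 5, so it could not call them. Itgal, Itgam, Itgae, Itgb2 and Itgb7 had control means of 5.45 to 37.8, and the summed level of all 7 leukocyte subunits was 84.6 and 87.2 in control libraries against 81.8 and 88.3 after DcpS shRNA. Itgb7, a lymphocyte homing subunit, had the largest positive log2 fold change of any tested member (0.78, SE 0.50), at 4.75 and 6.15 against 9.99 and 10.1, and did not pass (limma adjusted p 0.434). Microglia and macrophage markers, the brain cells that carry Itgam and Itgb2, summed to 234 and 237 over 10 genes in control libraries against 228 and 239 after DcpS shRNA, and 0 of 9 tested were called by limma, edgeR or DESeq2 (0 lower and 2 higher at an unadjusted limma p under 0.05). Markers of lymphocytes had at most a few reads, with Cd3e at 0 in control 1 and in DcpS shRNA 2.

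The 5 members left out of the test were Itgad, Itgax, Itgb6, Fermt1 and Lims2, with 0 to 5 reads per library. Itgax, a dendritic cell subunit, had no read in either DcpS shRNA library and up to 2.05 normalised reads in the controls, which is under the limit that a count of 0 allows. No fold is given for these genes.

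Inside the cell, the genes of talins, vinculin and kindlins gave no call in limma, edgeR or DESeq2, with 2 lower and 1 higher at an unadjusted limma p under 0.05. Tln1, the talin found in most cells, measured 1356 and 1399 in control libraries against 1250 and 1159 after DcpS shRNA, without overlap (log2 fold change −0.19, SE 0.06, limma adjusted p 0.0766), and passed without DcpS shRNA 1 (limma adjusted p 0.0161). Tln2, the talin of brain and muscle, measured 1096 and 1115 against 1016 and 1005 (log2 fold change −0.13, limma adjusted p 0.259). Fermt2, the kindlin of non-blood cells, measured 1440 and 1469 against 1640 and 1588, with both DcpS shRNA libraries above the controls (log2 fold change 0.15, SE 0.06, limma adjusted p 0.147). Fermt3, the blood-cell kindlin, measured 61.8 and 56.4 against 55.4 and 57.0. Vcl, which reinforces the talin link to actin, measured 686.0 and 661.5 against 691.4 and 635.9, and its 95% interval ran from −0.18 to 0.13.

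Of the ILK, PINCH and parvin complex, 0 of 4 tested genes were called by limma or edgeR, with 1 lower and 2 higher at an unadjusted limma p under 0.05. DESeq2 did not call Parva, Parvb or Lims1 and gave no adjusted p for Ilk. Parvb, a parvin that binds ILK and actin, measured 50.4 and 52.3 in control libraries against 76.3 and 79.3 after DcpS shRNA. Its groups lay well apart, but the log2 fold change of 0.59 (SE 0.19) missed the threshold (limma adjusted p 0.0773). Parvb passed in only 1 of 14 alternative settings, the replicate block (limma adjusted p 0.0406). Parva, the widely expressed parvin, measured 1187 and 1158 against 1045 and 1073 (log2 fold change −0.15, limma adjusted p 0.189), and Lims1, the PINCH adaptor, 1724 and 1830 against 1944 and 1912 (0.12, limma adjusted p 0.266). Ilk, the hub of the complex, measured only 39.0 and 27.7 against 26.3 and 23.5. Of its annotated exon bases 89.7% are shared with exons of Taf10 and Rrp8 on the opposite strand, so its reads depend on how overlaps and strand were handled, which is not given.

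Ptk2, the kinase that integrin clustering activates, was nearly level, at 3318 and 3352 in control libraries against 3435 and 3330 after DcpS shRNA. The 95% interval of its log2 fold change ran from −0.09 to 0.13. Zyx, which gathers actin-polymerising factors at mature adhesions, measured 898.9 and 889.1 against 1003 and 1019, with both DcpS shRNA libraries above the controls (log2 fold change 0.18, SE 0.06, limma adjusted p 0.117). Exon overlap with other genes also touched Itgam (68.7% of exon bases), Itga10 (33.5%) and Vcl (25.5%), and was under 20% for the remaining members apart from Ilk.

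**Figure D3:**
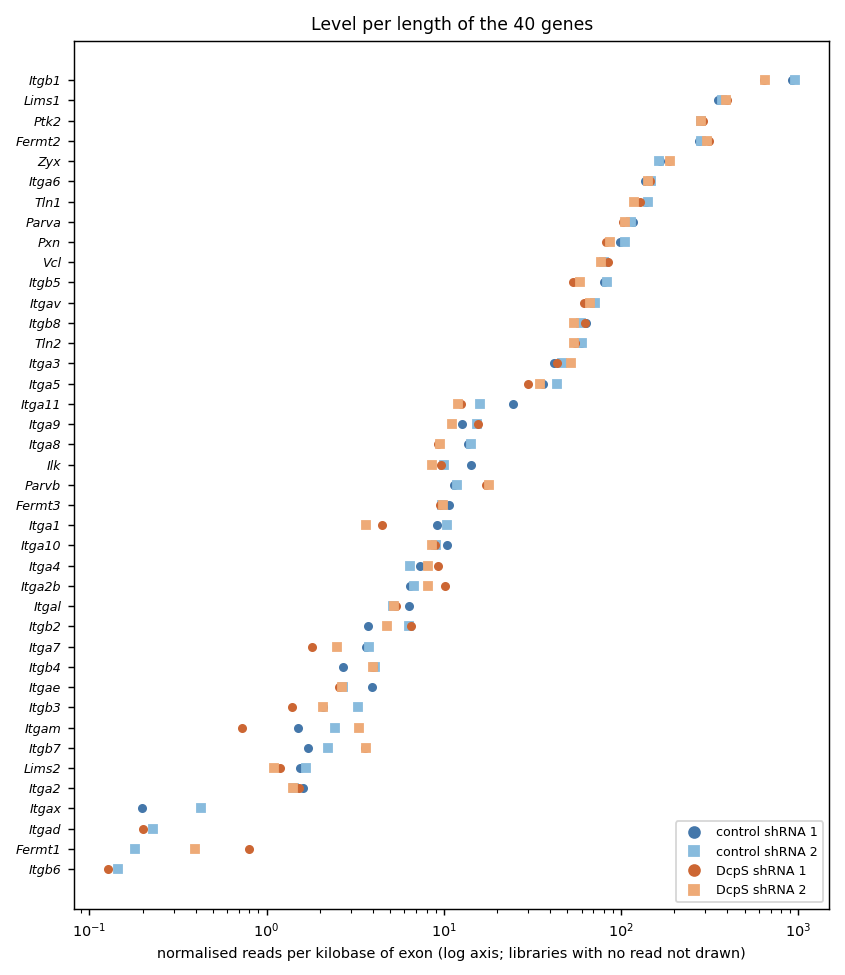
Normalised reads per kilobase of annotated exon for the 40 genes on a log axis, 1 point per library, ordered by the control mean; libraries with no read are not drawn. Itgb1 is highest in the control libraries, and Itgax, Itgad, Fermt1 and Itgb6 are lowest.

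Per kilobase of exon, Itgb1 stood first in the controls at 926 and 963 normalised reads per kilobase, followed by Lims1 (352 and 374), Ptk2 (281 and 284), Fermt2 (277 and 283) and Zyx (167 and 165). Ptk2 and Fermt2 did not differ beyond the spread of their libraries. With the longest protein-coding transcript as the length, a choice made after seeing the data, Itgb1 was again first and the next 3 were Ptk2, Fermt2 and Lims1. Among alpha subunits Itga6 led at 136 and 148 per kilobase, then Itgav (69.1 and 71.6), Itga3 (41.8 and 46.5) and Itga5 (36.6 and 43.4), where Itga3 and Itga5 overlapped. Itga1 stood at 9.14 and 10.5 per kilobase in control libraries against 4.49 and 3.67 after DcpS shRNA. The 12 alpha subunits that can pair with beta1 summed to 367 and 386 per kilobase in control libraries against 344 and 355 after DcpS shRNA. The ratio of Itgb1 to that sum was 2.52 and 2.49 in control libraries against 1.87 and 1.84 after DcpS shRNA. These ratios did not overlap between groups, and with 2 libraries against 2 an exact permutation test cannot give a p below 0.333. With the other length the ratios were 1.70 and 1.67 against 1.23 and 1.22.

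Other genes of the pathway were taken from lists chosen with earlier results known. Of 22 tested genes that link adhesions to actin, 2 fell (9.09%, against 3.65% of all genes tested) and 0 rose, among them alpha-actinin 1, Actn1, which crosslinks actin filaments (1256 to 1025 normalised reads, log2 fold change −0.29, SE 0.06). Of 23 kinases and adaptors 3 fell and 2 rose, so 21.7% were called in either direction, against 5.79% of all genes; without control 2 this became 1 and 1. Among them Cav1, the caveolin scaffold, had a log2 fold change of −0.51 (SE 0.12), the adaptor Grb2 −0.32 (SE 0.05), Nedd9, a docking protein for focal adhesion kinase, −0.22 (SE 0.06), Arhgef7, the Rac exchange factor beta-PIX, 0.33 (SE 0.05), and the adaptor Crk 0.18 (SE 0.05). Of 14 genes that control integrin activation 1 rose and 1 fell, the small GTPase Rap1a (0.35, SE 0.06) and its exchange factor Rapgef1 (−0.21, SE 0.05). That is 7.14% in each direction, against 2.14% of all genes higher and 3.65% lower. Of 7 tetraspanin partners 0 were called by limma, edgeR or DESeq2, with 1 lower and 1 higher at an unadjusted limma p under 0.05 and a median of −0.03. Of 10 tested non-integrin matrix receptors only the syndecan Sdc2 fell (−0.32, SE 0.08), which is 10% against 3.65% of all genes. Calls of these genes ended without control 2 for Actn1 (limma adjusted p 0.0564), Cav1 (0.125), Nedd9 (0.269), Rapgef1 (0.0889) and Sdc2 (0.283), without control 1 for Nedd9 (0.127), Rapgef1 (0.369) and Sdc2 (0.0554), without DcpS shRNA 1 for Cav1 (0.0684), Nedd9 (0.0511) and Sdc2 (0.0610), and without DcpS shRNA 2 for Nedd9 (0.0805) and Sdc2 (0.0586). The call of Crk also ended without control 1 (limma adjusted p 0.228), control 2 (0.340) or DcpS shRNA 2 (0.0795), under TMM (0.0558) or library-total scaling (0.0513) and in edgeR (adjusted p 0.0518). Nedd9 was not called when low genes were kept (limma adjusted p 0.0617), and DESeq2 did not call Cav1 (adjusted p 0.114), Crk (0.180), Nedd9 (0.269) or Sdc2 (0.245).

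Of 26 integrin ligands outside the cell 16 fell (61.5%, against 3.65% of all genes) and 0 rose, with a median log2 fold change of −0.51. The largest called falls were in Thbs2 (−1.16, SE 0.14) and Thbs1 (−0.90, SE 0.14), thrombospondins that bind several integrins, Fbn1, the RGD-bearing fibrillin (−1.08, SE 0.18), and Postn, a ligand of alpha v integrins (−1.07, SE 0.08). Fbn1 missed the threshold when low genes were kept (limma adjusted p 0.0947) and with the replicate block (limma adjusted p 0.299). Named for their receptors after their values were seen, fibronectin (Fn1) measured 5171 and 5462 in control libraries against 3644 and 3437 after DcpS shRNA, and Npnt, the Itga8 ligand, 182.4 and 175.4 against 100.9 and 91.6; both fell (limma adjusted p 5.80e-06 and 0.000855). Col4a1, a chain of the type IV collagen that Itga1 binds, fell from 4110 to 2413 (limma adjusted p 9.01e-07). The list overlaps what earlier results on these data showed, so its count is no independent evidence, and 5 of its genes (Col1a1, Col1a2, Col3a1, Postn and Fbn1) are fibroblast markers too. Ligands that were not called included Lamc1 (1830 to 1827 normalised reads), a laminin chain, and Reln (7542 to 7036), the guidance protein of the cortical surface. Of 9 genes of latent TGF-beta complexes, the cargo of alpha v integrins, Tgfb1 (−1.03, SE 0.26) and Tgfb3 (−0.81, SE 0.16) fell (22.2%, against 3.65% of all genes). The call of Tgfb1 ended without control 1 and without control 2. DESeq2 called neither Tgfb1 nor Tgfb3 (adjusted p 0.0634 for Tgfb3).

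**Figure D4:**
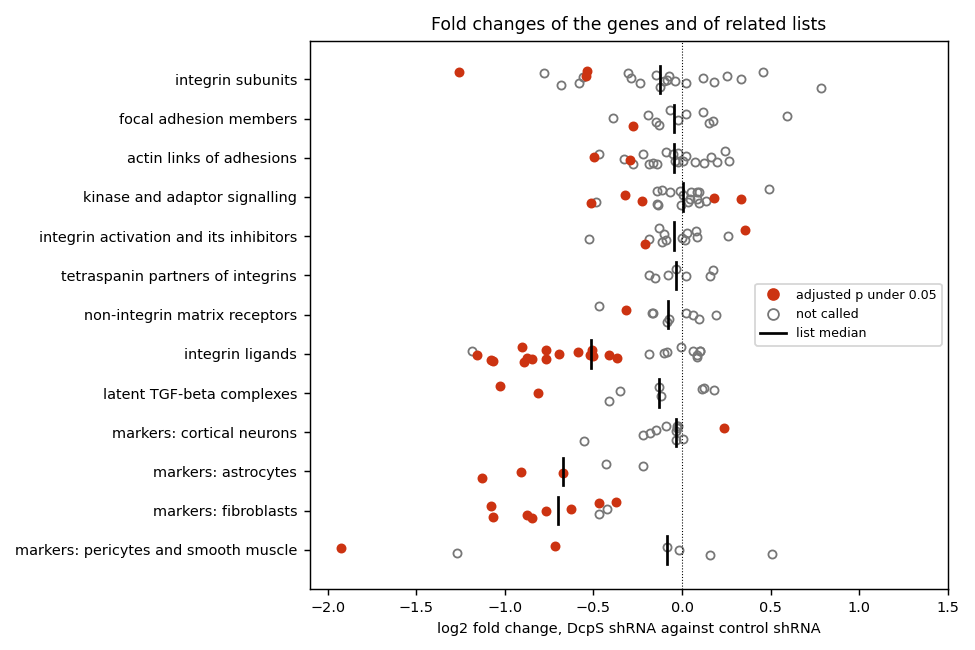
Log2 fold change of each tested gene in the integrin and focal adhesion groups, in related pathway lists and in marker lists, with called genes filled, others open, and a bar at the list median. The integrin ligand and fibroblast lists have medians of −0.51 and −0.70, while the medians of the actin-link and kinase lists are −0.04 and 0.01.

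Summed levels of markers for some other cell types were lower with DcpS shRNA, while those of radial glia and platelets were not. Fibroblast markers summed to 11954 and 13227 normalised reads over 10 genes in control libraries against 7303 and 6955 after DcpS shRNA, 56.6% of control, against 68.5% for Itgb1, 41.6% for Itga1, 68.9% for Itgb5 and 82.6% for Pxn. Pericyte and smooth muscle markers summed to 1330 and 1362 against 1166 and 1094, with Pdgfrb and Acta2 called lower among 7 tested. The median log2 fold change of these markers was −0.09 and the highest 0.51. Astrocyte markers summed to 2107 and 2366 against 1627 and 1716, with 3 of 5 tested called lower, or 1 (Gja1) without control 2 and 1 without DcpS shRNA 1. Endothelial markers had few reads except Kdr, the 1 of 4 tested that was called lower (log2 fold change −0.74), though not without control 2 (limma adjusted p 0.277) or in DESeq2 (0.204). They had Cldn5 at 0 in control 2 and in DcpS shRNA 2, and summed to 128 and 171 against 101 and 107. At an unadjusted limma p under 0.05, 1 endothelial marker was lower and 1 higher. Lower calls took 80% of tested fibroblast markers, 28.6% of pericyte and smooth muscle markers, 60% of astrocyte markers and 25% of endothelial markers. Over all genes tested the share was 3.65%. Platelet markers, relevant to Itga2b, summed to 56.1 and 47.2 against 61.8 and 53.6. The 1 tested was not called by limma, edgeR or DESeq2 (log2 fold change 0.12). Others were near the floor, with Pf4 at 0 in both controls and in DcpS shRNA 2, and Gp9 at 0 in both DcpS shRNA libraries. Radial glia markers summed to 28519 and 26974 against 29100 and 28903, with Nes called higher among 8 tested, though not without control 1 (limma adjusted p 0.0662) or control 2 (0.0688). The part of these cell types in the falls of Itgb1, Itga1, Itgb5 and Pxn was not tested.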

How the data were processed

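RNA was extracted with Trizol and libraries were made by Illumina protocols, per the labels' protocols. The deposited table gives 1 signal value per gene and library; no header or label states its scaling, and its values show whole reads divided by 1 factor per library. HISAT2 2.2.0, SAMtools 1.3.1, Picard, featureCounts, DESeq2 and the build GRCm38 are named in the submitters' processing notes, without roles; for annotation, strand use and multiply mapped reads, nothing is stated in these sources. Dividing each column by its smallest positive value gave whole reads for 100% of values (tolerance 0.001). Libraries of 1 group differed by more than counting noise (chi-square per degree of freedom 2.03 and 3.73).

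The main test was limma 3.58.1 on log2(normalised read count + 1), which understates changes of low genes, with intensity trend and robust empirical Bayes, over 18110 genes kept by edgeR's filterByExpr (minimum count 10). Intervals are 95%. Script functions were tested on simulated data. Named were called members, the 5 others with the largest changes, the 5 highest per kilobase, and up to 4 called genes per list; other members were described after their values were seen. Members and lists were chosen with earlier results of these data known. Alternatives were other pseudocounts (0.5 and 10), filters and scalings, edgeR 4.0.16 and DESeq2 1.42.0 on recovered reads, limma without trend and robust variance, a replicate block and leaving out each library. Exon lengths and 3′ untranslated regions came from GENCODE M21, promoters from RefSeq (GRCm38.p6), where 27 of 40 members had an entry. On the recovered reads edgeR called 1077 genes and DESeq2 453. DESeq2 gave no adjusted p for some low genes, which count there as not called. Among tested members these were Ilk, Itga2, Itga2b, Itga7, Itgb3, Itgb4 and the leukocyte subunits. The name of 1 called gene of the related lists is not reported here.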

Additional observations from a re-analysis of the deposited data

How the results depend on the processing

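Of 14 alternative settings, the falls of Itgb1 and Itga1 passed in 13, that of Itgb5 in 12 and that of Pxn in 10, all in the same direction. Of 473 comparisons of a tested member with an alternative, 8 lost and 8 gained a call and 0 turned a called direction. The 4 lower members became 2 with DESeq2 (Itgb1 and Itga1) and 0 with limma without trend and robust variance. In that limma fit 7 lower and 5 higher members had an unadjusted p under 0.05. There Itgb1 and Itga1 had adjusted p 0.178, Itgb5 0.200 and Pxn 0.286. The higher members Parvb and Itgb7 had adjusted p 0.178 and 0.215 in the same limma fit. Leaving out 1 library gave 4 lower members each time and 0 higher, but not the same 4: Itga11 took the place of Pxn without control 2, and Tln1 without DcpS shRNA 1. Over all genes, 1048 calls became 453 with DESeq2, 0 with limma without trend and robust variance (2538 at an unadjusted p under 0.05), and 594 to 1439 with 1 library left out, the fewest without control 2 and 670 without control 1. A lone library is there assumed to vary like the other group. With the replicate block, by the set numbers of the titles, 1626 genes, 7 lower members and 1 higher member were called, adding Itga11, Itga8 and Tln1 lower and Parvb higher, and Fbn1 lost its call (limma adjusted p 0.299). The labels do not say whether the numbers pair the cultures, and the deviations of same-numbered libraries had a correlation of 0.04 over 18110 genes, which does not settle it. The cause of these differences was not tested. The low members Itgb3, Itgb7 and Itga2 have standard errors of 0.41 to 0.50 on the log2 scale, and Itgam one of 0.58, which limits what this depth can show.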
